A study of Mus musculus with 13 samples.

Results

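The 1000 kb of mouse chromosome 2 centred on the start of Fshb, the gene for the β subunit of follicle-stimulating hormone (FSH), held 434 of the 538751 peaks in 12 ChIP-seq peak lists. Members were chosen by position alone: every peak that overlapped 500 kb on either side of the Fshb start (position 107059656, minus strand, in the coordinates of the deposited tables), whichever gene the deposited annotation gave it. Peaks of the 4 libraries of an antibody that shared at least 1 bp were merged into regions, which gave 139 regions in the window (12 for SMAD2/3, 92 for FOXL2 and 35 for H3K27ac) of 186391 in all. The stretch from 50 to 100 kb upstream of the start is called the upstream cluster, and the remaining 950 kb the rest of the window. The limits of the cluster were chosen with earlier results of these data known. Each value and p given for the cluster below is therefore a description. Fshb is read towards lower coordinates, so upstream means higher coordinates, towards Kcna4.

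The libraries came from LβT2 cells, a mouse line derived from pituitary gonadotropes, transduced with a lentivirus that expresses FLAG-tagged mouse FOXL2 under doxycycline (DOX). Both groups carried the transgene and received DOX, and they differed in 1 h of vehicle or of 1 nM activin A. For both groups the labels give 48 h of DOX, 24 h of recovery, 2 h of equilibration and 2% serum. Antibodies to SMAD2/3, to the FLAG tag and to histone H3 acetylated at lysine 27 (H3K27ac) were each applied to 2 samples per treatment, numbered 1 and 2 below, and each sample pooled 3 plates. FOXL2 below is therefore the tagged, DOX-induced protein, and endogenous FOXL2 was not measured on its own. A Protein-A control is described in the labels and was not analysed here. In the library names of the labels, a single letter recurs across the 3 antibodies for each treatment and replicate number, so the 3 targets may share their chromatin. The labels do not say that the duplicates came from cells grown on separate occasions, so p-values measure only the spread between these libraries.

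FSH is made by gonadotrope cells as a dimer of the common α subunit, encoded by Cga, and the β subunit, encoded by Fshb, and the β subunit limits how much hormone is made. Activins bind serine/threonine kinase receptors that phosphorylate SMAD2 and SMAD3, which enter the nucleus and bind DNA, often beside other factors. In gonadotropes that partner is FOXL2, a forkhead protein needed for Fshb expression. H3K27ac marks active promoters and enhancers, and the label is usually depleted at the bound site itself, where nucleosomes are displaced.

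The bases before the Fshb start are shown first because no peak of any target lay there. Those before 1 RefSeq start of Arl14ep follow because that neighbouring promoter carried peaks of 2 targets. These were FOXL2, called in the vehicle libraries only, and H3K27ac, called in all 4 libraries. Both sequences come from RefSeq (GRCm38.p6), read 5′ to 3′ on the minus strand from 250 bases before the start up to it. Capitals mark matches to the AP-1 letters TGANTCA.
Fshb, chr2:107059652-107059901: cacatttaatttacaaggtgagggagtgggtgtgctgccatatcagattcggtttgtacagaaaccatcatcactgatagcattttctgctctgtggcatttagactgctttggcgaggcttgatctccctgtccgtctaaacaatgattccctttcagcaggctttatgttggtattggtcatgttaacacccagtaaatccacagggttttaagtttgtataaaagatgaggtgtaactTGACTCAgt
Arl14ep, chr2:106974398-106974647: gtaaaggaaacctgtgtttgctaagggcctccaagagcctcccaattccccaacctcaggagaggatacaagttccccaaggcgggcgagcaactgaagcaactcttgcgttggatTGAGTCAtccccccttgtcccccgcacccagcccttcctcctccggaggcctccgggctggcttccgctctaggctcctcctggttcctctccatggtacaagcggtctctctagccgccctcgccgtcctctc
The Fshb match is TGACTCA, with its first base at -9 from the RefSeq start, and the Arl14ep match is TGAGTCA, with its first base at -134. In the 300-base windows that run from 250 bases before each start to 50 after, both strands were searched for these AP-1 letters, for CAGAC as the SMAD box, for its palindrome GTCTAGAC, for the GC-rich SMAD letters GGCGCC as well as GGCTGC, for the forkhead letters TGTTTAC as well as TATTTAC, for the NR5A1 letters CAAGGTCA, and lastly for the PITX letters TAATCC. None of these strings lies within another. TGANTCA was the only one of these found in the Fshb window, and in that Arl14ep window. Of 32851 RefSeq promoter windows of this length, 7.81% held the AP-1 letters, 49.59% the SMAD box and 0.21% its palindrome. GGCTGC occurred in 30.56% of these windows, the other GC-rich string in 11.87%, and the PITX letters in 7.06%. The forkhead letters occurred in 3.65% as TGTTTAC and in 3.04% in the second form, and the NR5A1 letters in 1.56%. A match describes letters and is not a measured site. Only these exact letters in these windows were searched, so variant letters and bases farther upstream were not covered.

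The number of reads behind each list is unknown, and the lists differ in length: 605 and 144 SMAD2/3 peaks under vehicle against 7784 and 5970 under activin, 83834 to 97701 FOXL2 peaks, and 38995 to 41763 H3K27ac peaks. The labelled cell type was checked on 11 gonadotrope genes, of which 10 had an H3K27ac region called in all 4 libraries within 1 kb of a start, and Fshb was the exception. None of 8 genes of other pituitary lineages had one, of which 7 had a known start. With 2 libraries against 2, the exact permutation test over the 6 labellings cannot give a p under 0.333, so no comparison below could pass 0.05 and each is given by its values and its spread.

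Across the window, SMAD2/3 peaks were few and lay on both sides of the gene, FOXL2 peaks were spread over all of it, and H3K27ac peaks formed separate groups. In the SMAD2/3 lists, the window held 3 and 2 peaks under vehicle and 10 and 10 under activin. In the FOXL2 lists it held 77 and 70 under vehicle and 81 and 78 under activin. In the H3K27ac lists it held 22 and 21 under vehicle and 32 and 28 under activin. The vehicle and activin counts did not overlap for any target, with differences of 7.5 (pooled SD 0.5), 6 (pooled SD 3.81) and 8.5 (pooled SD 2.06) peaks, each with an exact permutation p of 0.333 (two-sided, n = 2). The lengths of the whole SMAD2/3 and FOXL2 lists did not overlap either. Their activin to vehicle ratios of means were 18.4 and 1.13, against 4 and 1.08 in the window. For H3K27ac the list lengths overlapped, with a ratio of 0.99 against 1.40 in the window. When each SMAD2/3 list was reduced to its strongest 144 peaks, the length of the shortest list, all 4 held 2 peaks in the window, both in the upstream cluster. Such a reduction removes weaker sites by construction, so it does not separate list length from sites gained under activin. Among H3K27ac peaks with a −log10 q of at least 5 the order of the counts turned, with 15 and 14 peaks in the window under vehicle and 13 and 11 under activin. The length those peaks covered kept its order, at 27748 and 24062 bp under vehicle and 40936 and 32761 bp under activin.

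**Figure D1:**
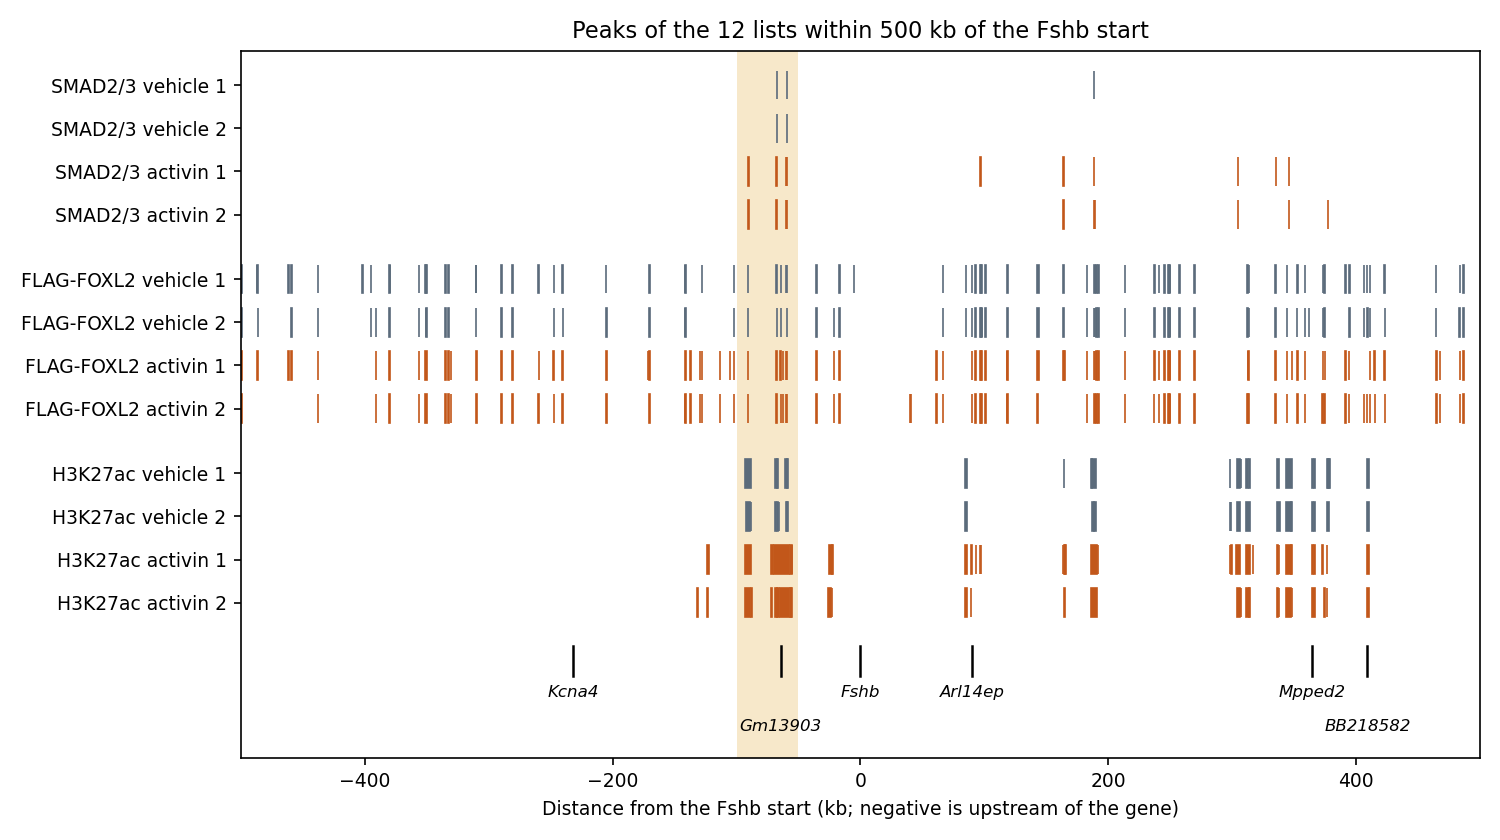
Peaks of each of the 12 lists (rows) by distance from the Fshb start in kb (negative is upstream), vehicle in grey and activin in orange, with narrow peaks drawn at a minimum width so that they can be seen, the upstream cluster shaded and the starts of 6 genes marked below. SMAD2/3 peaks appear in all 4 lists only inside the shaded cluster, and no list has a peak at the Fshb start.

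No peak of any target overlapped the Fshb start or the 1 kb around it. The FOXL2 peak nearest to the start on its upstream side began 16.7 kb away in 3 libraries. In vehicle library 1 a peak called in that list alone began 4.83 kb away, with a fold enrichment of 3.67. The nearest upstream SMAD2/3 peak began between 59.0 and 59.1 kb away in all 4 libraries. The nearest upstream H3K27ac peak began 58.5 and 58.4 kb away under vehicle and 22.5 and 22.8 kb away under activin. Those 2 activin peaks were weak, with a −log10 q of 2.27 and 1.81, and the next peak upstream had 6.44 and 4.16. At a −log10 q of at least 5, only activin library 1 kept an H3K27ac peak between the cluster and Fshb. In activin library 2 the nearest such peak upstream then lay in the cluster, as in both vehicle libraries. On the downstream side the nearest H3K27ac peak began 84.8 kb away in each of the 4 libraries, at Arl14ep.

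The upstream cluster held 4 SMAD2/3 regions, all of them called in both activin libraries, and 2 of these had the best places of the window in every list. It makes up 5% of the window and held 8 SMAD2/3 regions per 100 kb, against 0.842 per 100 kb in the rest. Of the 12 SMAD2/3 regions in the window, 2 were called in all 4 libraries, and both lay in the cluster (1.53% of all 8602 SMAD2/3 regions were called in all 4). Another 5 were called in both activin and neither vehicle library, called activin-only below, 2 of them in the cluster, against 54.0% of all SMAD2/3 regions. The remaining 5 had another pattern, and none was vehicle-only (0.0233% of all).

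The strongest site was centred 67.5 kb upstream (chr2:107126817-107127530), in intergenic sequence by the deposited annotation. Its fold enrichment, which is the authors' ratio over a background and describes a peak within its list, was 12.6 and 10.3 under vehicle and 18.8 and 24.4 under activin. By −log10 q it was in place 2 of 605 and 1 of 144 under vehicle and in places 3 of 7784 and 1 of 5970 under activin. In both replicates numbered 2 it was thus the strongest SMAD2/3 peak of the whole list, with or without activin. Because lists of different length cannot be compared by place, each region called in all 4 libraries was also given a percentile rank by −log10 q among those regions only, 132 for SMAD2/3, with 100 for the strongest. On that scale the site stood at 99.2 and 100 under vehicle and at 98.5 and 100 under activin, and the groups overlapped. The scale ends at 100, so a site this near the top under vehicle had almost no room to rank higher.

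The other site called in every library was centred 59.3 kb upstream (chr2:107118637-107119205). Its fold enrichment was 6.47 and 5.07 under vehicle and 13.8 and 15.9 under activin. Its percentile rank among the 132 common regions was 77.3 and 75.0 under vehicle and 90.2 and 92.4 under activin. Both activin ranks lay above both vehicle ranks, by 15.2 percentile points on average (pooled SD 1.61, exact permutation p = 0.333, n = 2), an order found at 26.5% of the 132 regions. When regions were ranked by fold enrichment the difference was 2.27 points, and the activin ranks no longer both lay above both vehicle ranks. Without vehicle library 2, the list of 144 peaks, the difference by −log10 q was 3.61 points.

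The activin-only sites of the cluster were weaker. The site 60.2 kb upstream (chr2:107119749-107119989) had a fold enrichment of 5.40 and 5.06 in the activin lists, in places 2462 and 2327. The site 90.4 kb upstream (chr2:107149850-107150297) had a fold enrichment of 7.05 and 6.23, in places 735 and 924. Neither was called under vehicle, where the lists held 605 and 144 peaks.

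**Figure D2:**
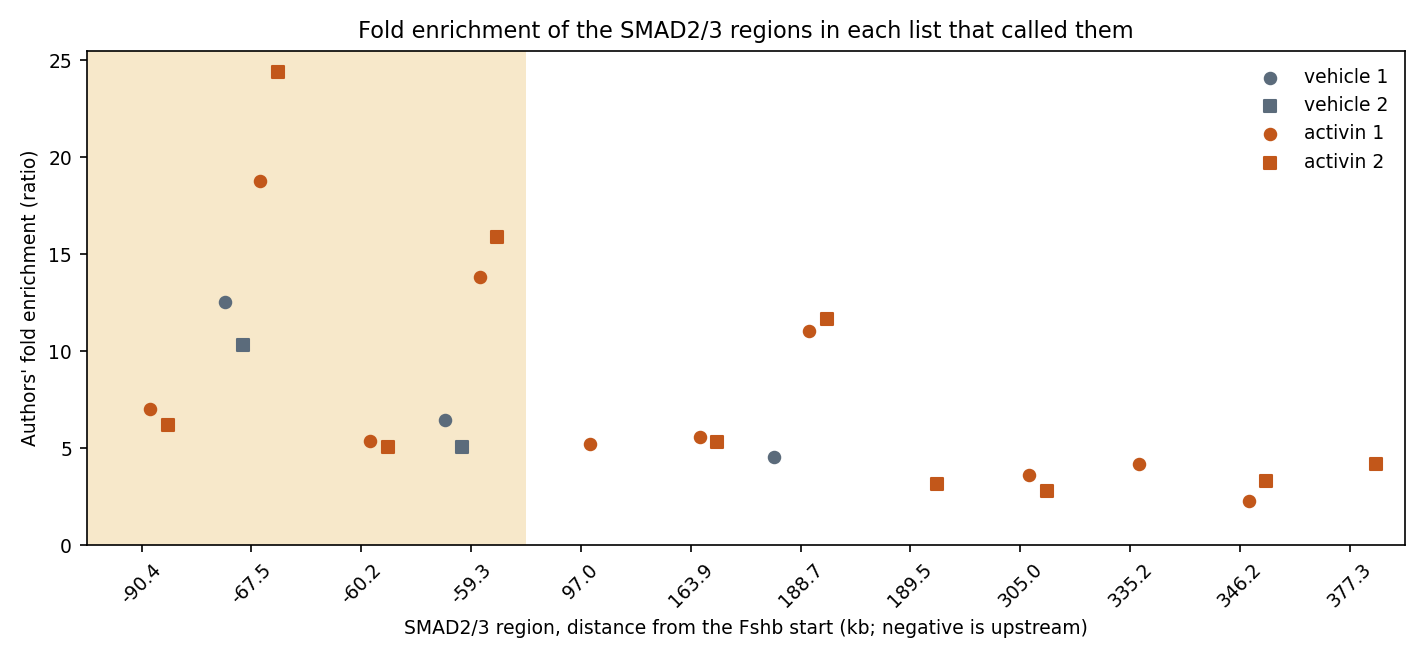
Authors' fold enrichment (y axis, a ratio) of each of the 12 SMAD2/3 regions, ordered by distance from the Fshb start in kb, with 1 point for each list that called the region and the 4 regions of the upstream cluster shaded. The sites 67.5 and 59.3 kb upstream have points from all 4 lists, and the site 188.7 kb downstream is the highest outside the cluster.

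In the rest of the window all 8 SMAD2/3 regions lay downstream of the Fshb start, and 4 of them were called in both activin libraries. The strongest was centred 188.7 kb downstream (chr2:106870790-106871134), between the end of Mpped2, which encodes a metallophosphoesterase, and the pseudogene Gm13901. Its fold enrichment was 4.54 in vehicle library 1, 11.1 and 11.7 under activin, in places 340 and 254, and it was not called in vehicle library 2. Those places were ahead of both activin-only sites of the cluster. The region 163.9 kb downstream was activin-only, with fold enrichments of 5.59 and 5.32, in places 2061 and 2044 ahead of the site 60.2 kb upstream, and so were those 305.0 kb (3.63 and 2.82) and 346.2 kb (2.26 and 3.34) downstream, both in intron 2 of Mpped2. The other 4 were each called in a single activin library: 97.0 kb downstream in exon 5 of Arl14ep (5.22, activin 1), 189.5 kb (3.17, activin 2), 335.2 kb (4.21, activin 1) and 377.3 kb (4.20, activin 2). Between the site 90.4 kb upstream and the end of the window on that side there was no SMAD2/3 peak in any list, and the next one in the files lay 2.88 Mb upstream.

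FOXL2 regions overlapped the SMAD2/3 sites of the cluster, most of them already under vehicle. The cluster had 6 FOXL2 regions (12 per 100 kb, against 9.05 in the rest), of which 4 were called in all 4 libraries, and 57 of the 92 regions in the window were (46.8% of all 124781 FOXL2 regions). The FOXL2 lists held 5 and 4 peaks in the cluster under vehicle and 6 and 6 under activin, a difference of 1.5 (pooled SD 0.5, exact permutation p = 0.333, n = 2). In the window, 8 FOXL2 regions were activin-only (8.95% of all) and 2 vehicle-only (3.22% of all). Without vehicle library 1 these counts were 13 and 4, and leaving out any of the other 3 libraries gave 5 vehicle-only regions.

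At the strongest SMAD2/3 site, the FOXL2 region centred 67.6 kb upstream (chr2:107126778-107127648) had a fold enrichment of 19.1 and 17.3 under vehicle and 26.6 and 24.7 under activin. Its percentile rank among the 58444 FOXL2 regions called in all 4 libraries was 95.5 and 96.5 under vehicle and 99.4 and 99.5 under activin. The difference of 3.43 points was larger than the spread between replicates (pooled SD 0.517, exact permutation p = 0.333, n = 2), on a scale that left at most a few points above the vehicle ranks.

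At the site 59.3 kb upstream (chr2:107118661-107119209), FOXL2 had a fold enrichment of 7.32 and 8.77 under vehicle and 18.1 and 19.5 under activin. Its rank was 64.7 and 75.4 under vehicle and 92.9 and 96.3 under activin, a difference of 24.6 points (pooled SD 5.62, exact permutation p = 0.333, n = 2). A weaker region 64.4 kb upstream (chr2:107123848-107124185), which the annotation places at the start of the pseudogene Gm13903, ranked 14.9 and 25.9 under vehicle and 35.0 and 61.2 under activin, a difference of 27.7 points with a pooled SD of 14.2. The region 90.6 kb upstream (chr2:107150088-107150482) ranked 4.98 and 18.3 under vehicle and 14.8 and 9.28 under activin, and these groups overlapped.

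The other 2 FOXL2 regions of the cluster were not called everywhere. The one 60.2 kb upstream (chr2:107119770-107120026), beside the activin-only SMAD2/3 site, was called in vehicle library 1 and in both activin libraries, with fold enrichments of 3.53, 4.10 and 4.19. The one 62.6 kb upstream (chr2:107122120-107122462) was activin-only and weak, with fold enrichments of 2.53 and 4.14.

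SMAD2/3 and FOXL2 summits, the positions of highest signal, lay at most 106 bp apart at 3 of the 4 cluster sites. At the site 67.5 kb upstream the distance between the 2 summits in libraries of the same treatment and number was 23 and 39 bp under vehicle and 39 and 16 bp under activin. At 59.3 kb upstream it was 4 and 106 bp under vehicle and 42 and 38 bp under activin, and at 60.2 kb upstream it was 5 and 68 bp under activin. At 90.4 kb upstream it was 335 and 322 bp, the farthest in the cluster. Outside the cluster, at 188.7 kb downstream, it was 18 bp in vehicle library 1 and 5 and 2 bp under activin. Over the 6 SMAD2/3 peaks outside the cluster in each activin list the median distance was 52.5 and 1988 bp, with 4 and 2 of them within 100 bp and the farthest at 7648 and 18913 bp. The site 163.9 kb downstream differed most between the activin libraries, with a FOXL2 summit 12 bp away in library 1 and none nearer than 18913 bp in library 2.

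**Figure D3:**
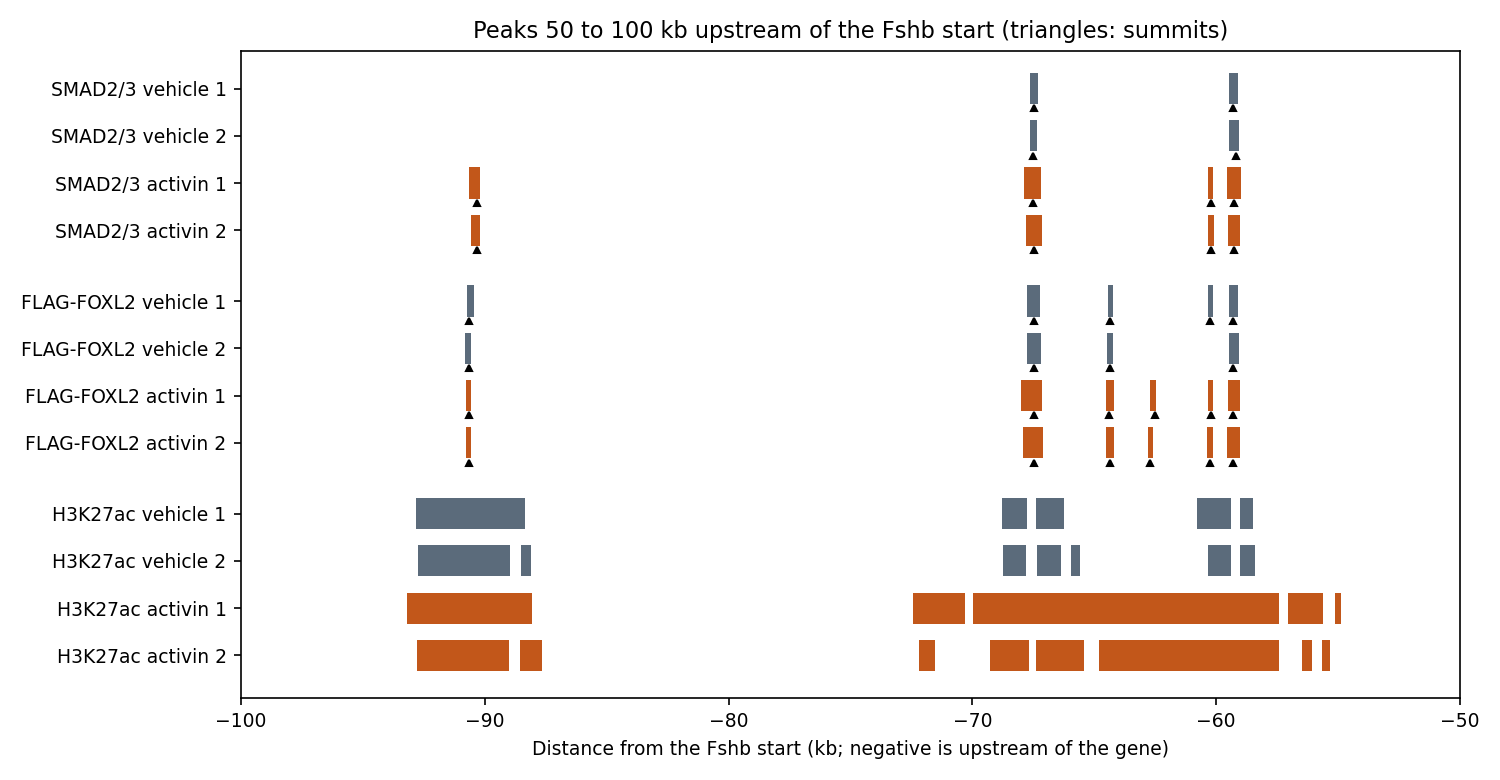
Peaks of the 12 lists in the upstream cluster by distance from the Fshb start in kb, vehicle in grey and activin in orange, with triangles at the summits of SMAD2/3 and FOXL2 peaks. H3K27ac peaks flank the summits at 59.3 and 67.5 kb in both vehicle lists, and under activin 1 peak of 12539 bp or 3 shorter ones cover most of the stretch between them.

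H3K27ac covered more of the cluster in each activin library than in either vehicle library. Its peaks covered 8588 and 8062 bp of the cluster under vehicle and 21468 and 17035 bp under activin. The means were 8.33 ± 0.372 kb and 19.3 ± 3.13 kb (SD, n = 2), a ratio of 2.31 with an exact permutation p of 0.333. Expressed as a share of the cluster's length, this was 17.2% and 16.1% under vehicle and 42.9% and 34.1% under activin. In the rest of the window the covered length was 23494 and 21676 bp under vehicle and 30446 and 24788 bp under activin, a ratio of 1.22. The cluster thus held 26.8% and 27.1% of the window's acetylated length under vehicle and 41.4% and 40.7% under activin. Over the whole genome the lists covered 50.4 and 49.2 Mb under vehicle and 51.8 and 43.6 Mb under activin, a ratio of 0.958 with overlapping groups.

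The number of H3K27ac peaks in the cluster did not follow the covered length. It was 5 and 7 under vehicle and 5 and 8 under activin, with overlapping groups, and single activin peaks spanned stretches that held several vehicle peaks. The mean width of a cluster peak was 1718 and 1152 bp under vehicle and 4294 and 2129 bp under activin. The longest was 4459 and 3802 bp under vehicle and 12539 and 7400 bp under activin. Counted only at a −log10 q of at least 5, the cluster held 5 and 5 peaks under vehicle and 2 and 4 under activin, while the covered length at that threshold was 8588 and 7308 bp under vehicle and 17649 and 14738 bp under activin.

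**Figure D4:**
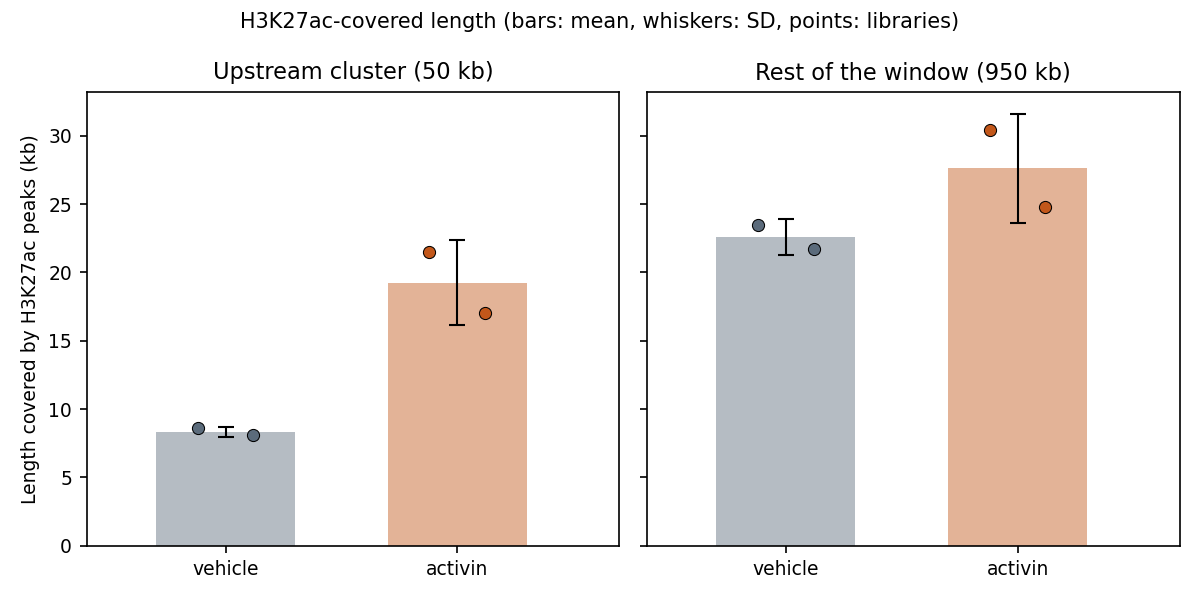
Length in kb covered by H3K27ac peaks in the upstream cluster (left) and in the rest of the window (right), with a point for each library, bars for the mean of 2 and whiskers for the SD. In the cluster the means are 8.33 kb under vehicle and 19.3 kb under activin.

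The merged H3K27ac region over the sites at 59.3 and 67.5 kb (chr2:107117071-107129627) contained 4 and 5 peaks under vehicle and 1 and 3 under activin. The highest fold enrichment among its peaks was 4.37 and 4.12 under vehicle and 5.78 and 8.34 under activin. Its percentile rank among the 24356 H3K27ac regions called in all 4 libraries was 72.8 and 76.4 under vehicle and 90.7 and 98.0 under activin, a difference of 19.8 points (pooled SD 4.06, exact permutation p = 0.333, n = 2). The region over the site at 90.4 kb (chr2:107147324-107152835) ranked 62.8 and 67.5 under vehicle and 81.3 and 84.7 under activin, a difference of 17.9 points (pooled SD 2.89, p = 0.333 by the same exact test). Both acetylated regions of the cluster that every library called therefore ranked higher in both activin libraries, an order found at 27.9% of all such regions.

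The SMAD2/3 summits lay between H3K27ac peaks at 2 of the 4 cluster sites, in some of the lists. At 59.3 kb upstream the summits fell in a gap of 358 and 361 bp between H3K27ac peaks in the vehicle lists, and inside a peak in both activin lists. At 67.5 kb upstream they fell in a gap of 368 and 418 bp under vehicle and of 304 bp in activin library 2, and inside a peak in activin library 1. Each gap held all 4 SMAD2/3 summits of its site. At 60.2 and 90.4 kb upstream the summits lay inside an H3K27ac peak in all 4 lists.

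All 5 activin-only H3K27ac regions of the window lay upstream of Fshb (5 of 35 in the window, against 5.84% of all 53008 H3K27ac regions), and none in the window was vehicle-only (6.79% of all). They were centred 22.8, 24.6, 56.2, 71.4 and 123.1 kb upstream, and the pair at 56.2 and 71.4 kb flanked the region between them on either side. The one with the highest rank, at 24.6 kb upstream (chr2:107082820-107085777), had fold enrichments of 3.34 and 3.19, and none of the 5 remained activin-only at a −log10 q of at least 5. Without activin library 1 or 2 the number called activin-only in the window was 9 or 16, since it then needs 1 activin list. No H3K27ac peak lay between 131.7 kb upstream and the end of the window on that side, and the next one in the files lay 1.84 Mb upstream. Kcna4, which encodes a voltage-gated potassium channel and starts 231.7 kb upstream of Fshb, had no H3K27ac or SMAD2/3 peak annotated to it in the window and 58 FOXL2 peaks.

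Downstream of Fshb, acetylation lay at Arl14ep, at the site 188.7 kb downstream and across Mpped2 and BB218582. The 5 H3K27ac regions outside the cluster with the highest mean activin rank were all called in all 4 libraries, as were 11 of the 35 in the window (45.9% of all). At the Mpped2 start (365.6 kb downstream) the percentile rank was 91.5 and 91.9 under vehicle and 89.0 and 89.0 under activin. In the Mpped2 intron (346.1 kb) it was 89.7 and 94.8 under vehicle and 85.7 and 79.0 under activin. At the start of the noncoding transcript BB218582 (409.6 kb) it was 89.2 and 91.1 under vehicle and 84.8 and 77.3 under activin. At these 3 places both activin ranks were thus below both vehicle ranks. The region 312.8 kb downstream ranked 87.0 and 74.4 under vehicle and 73.3 and 75.4 under activin, and the one at Arl14ep (85.4 kb) 57.6 and 61.2 under vehicle and 57.6 and 64.4 under activin, both with overlapping groups.

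A single acetylated region outside the cluster ranked higher in both activin libraries, and it was the one over the SMAD2/3 site 188.7 kb downstream (chr2:106868586-106873782). It ranked 49.2 and 37.6 under vehicle and 78.9 and 76.6 under activin, a difference of 34.4 points (pooled SD 5.92, exact permutation p = 0.333, n = 2). Of the 9 regions outside the cluster called in all 4 libraries, 1 was higher, 5 were lower (30.4% of all are) and 3 overlapped. Over the whole window 3 were higher, and without activin library 1 this number was 6. The median difference was 18.8 points for the 2 regions in the cluster, -6.27 points for the 9 outside it and -0.34 points over all 24356, where 5% of regions lay below -27.51 and 5% above 29.54.

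FOXL2 ranks differed in both directions along the window. Of the 57 FOXL2 regions called in all 4 libraries, 20 ranked higher in both activin libraries (26.1% of all such regions do) and 15 lower (33.1% of all do). Without vehicle library 1 the number that ranked higher was 31, and without vehicle library 2 the number that ranked lower was 25. In the cluster 3 of 4 were higher and none was lower, and in the rest 17 of 53 were higher and 15 lower. The median difference was 14.0 points in the cluster, 0.22 points in the rest and -1.51 points over all 58444 regions, where 5% lay below -27.13 and 5% above 34.2. Divided by side instead, 13 of 22 upstream regions were higher and 3 lower, and 7 of 35 downstream regions were higher and 12 lower. The cluster's 3 are among the 13, so the upstream side held a majority of higher FOXL2 ranks also outside the cluster, including the region 35.4 kb upstream (58.3 and 61.5 under vehicle, 74.7 and 67.2 under activin). The region 17.2 kb upstream, the nearest to Fshb that every library called, ranked 87.0 and 75.1 under vehicle and 90.6 and 86.6 under activin, and these groups overlapped.

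**Figure D5:**
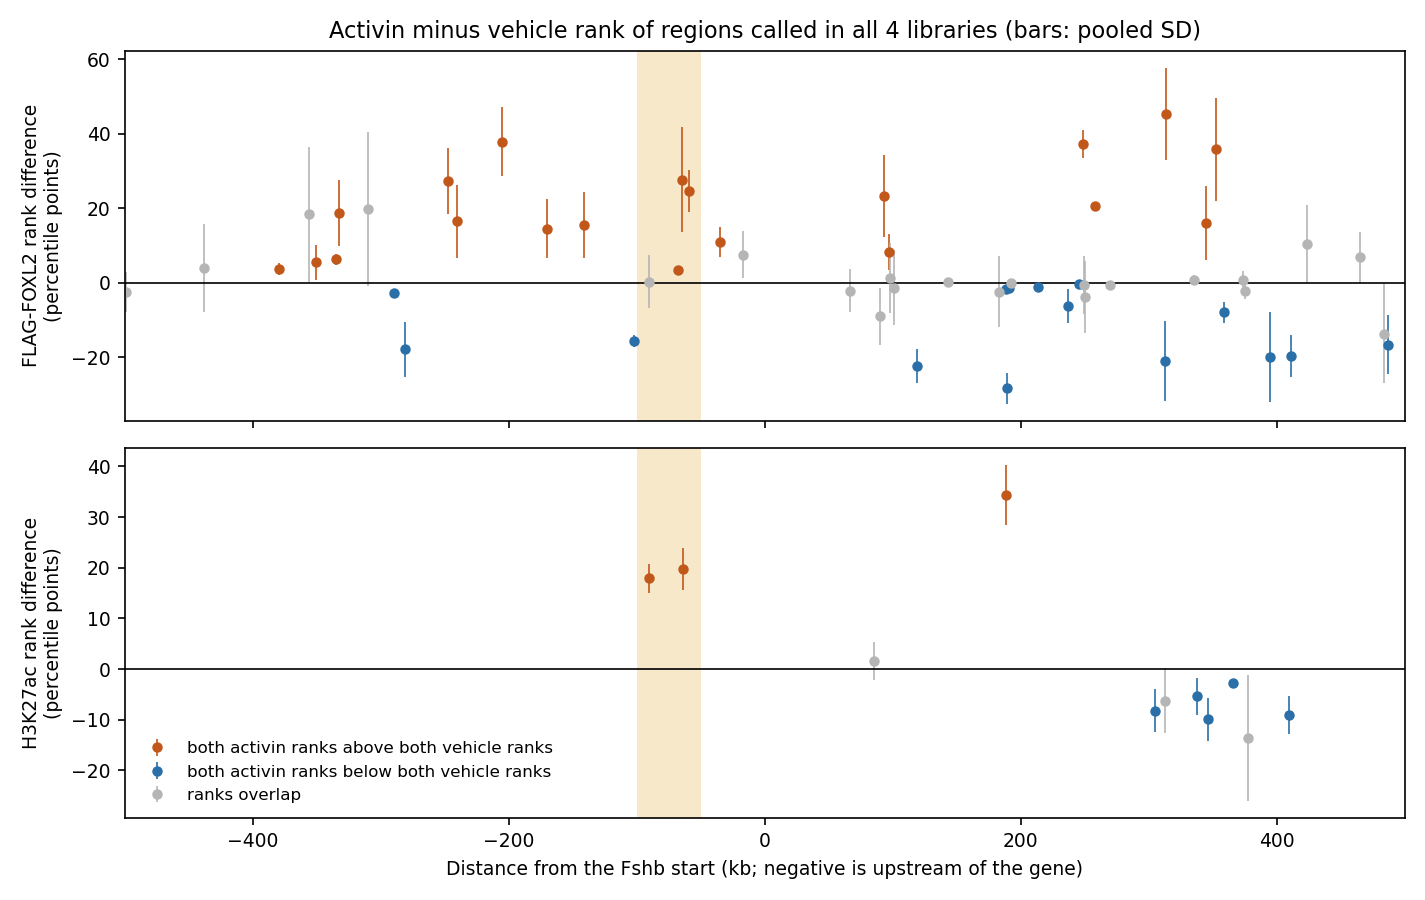
Activin minus vehicle difference in percentile rank (y axis, points; bars show the pooled SD of 2 libraries a group) of each FOXL2 region (top) and H3K27ac region (bottom) called in all 4 libraries, by distance from the Fshb start in kb, with the cluster shaded. The 2 H3K27ac regions of the cluster and the one at 188.5 kb lie above 0 and the other H3K27ac regions at or below it, apart from a difference of 1.60 points at Arl14ep, while FOXL2 regions lie on both sides of 0.

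Strong FOXL2 regions lay on both sides of Fshb. By −log10 q the best FOXL2 peak of the window was the one 67.6 kb upstream in activin library 1, in place 360, and the one 245.5 kb downstream in the other 3 lists. The highest fold enrichments in the activin lists, 37.5 and 30.3, belonged to a region 334.9 kb upstream. The 5 regions with the highest mean activin rank outside the cluster were centred 245.5, 335.3, 143.3, 190.5 and 213.6 kb downstream of Fshb, and their percentile ranks lay between 95.7 and 99.8 in every library. The region 245.5 kb downstream (chr2:106813724-106814590), annotated to an intron of Mpped2, held places 155 and 107 of the vehicle lists and 412 and 217 of the activin lists. Their activin minus vehicle differences ran from -1.31 to 0.88 percentile points, and the regions at 245.5, 143.3 and 213.6 kb overlapped neither an H3K27ac nor a SMAD2/3 region. Among activin-only FOXL2 regions the strongest lay 113.5 kb upstream (chr2:107172864-107173363), with fold enrichments of 12.3 and 10.0. The stronger of the 2 vehicle-only regions lay at the RefSeq Arl14ep start printed above (chr2:106974341-106974549), with fold enrichments of 4.76 and 4.18. The deposited annotation places the Arl14ep start elsewhere, 90.4 kb downstream of Fshb. Beside that start, a FOXL2 region centred 89.9 kb downstream was called in all 4 libraries. Its fold enrichments were 9.13 and 6.71 under vehicle and 6.52 and 7.59 under activin. At the BB218582 start a FOXL2 region was called with fold enrichments of 4.53 and 4.47 under vehicle and 3.25 in activin library 2 alone.

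By the rule of 1 shared bp, the 3 targets met at every SMAD2/3 site of the cluster. All 4 SMAD2/3 regions there overlapped both a FOXL2 and an H3K27ac region called in both activin libraries. The same held for 61.7% of all 5162 SMAD2/3 regions called in both activin libraries (82.0% overlapped FOXL2 and 76.7% H3K27ac). At 90.4 kb upstream, however, the SMAD2/3 and FOXL2 summits lay 335 and 322 bp apart in the activin libraries. In the rest of the window 4 SMAD2/3 regions were called in both activin libraries, of which 1 overlapped FOXL2 and 3 overlapped H3K27ac. The one that overlapped both was the site 188.7 kb downstream. From the side of FOXL2, all 6 regions of the cluster overlapped acetylated chromatin in both activin libraries, against 6 of 66 in the rest and 18.4% of all 80073. Of these FOXL2 regions 4 of 6 in the cluster and 1 of 66 in the rest overlapped SMAD2/3, against 5.22% of all. The cluster was chosen with these values known, so its contrast with the rest is a description and was not tested.

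The deposited annotation did not connect the cluster with Fshb. Each of the 58 cluster peaks carried as nearest gene Gm13903, an unprocessed pseudogene whose start lies 64.3 kb upstream of Fshb, between the SMAD2/3 sites at 60.2 and 67.5 kb. In the whole window 82 peaks carried Gm13903 and 5 carried Fshb, all of them FOXL2 peaks. Mpped2 was the nearest gene of 73 peaks, Kcna4 of 58, Gm13901 of 46, Arl14ep, which encodes an effector of the GTPase ARL14, of 33, and the small RNA genes SCARNA15 and SCARNA4 inside Mpped2 of 27 and 21. BB218582 had 27, Gm9864, whose start lies outside the window, 23, Gm14014 14, Gm24885 11, Gm13902 and Gm13900 6 each and Gm13904 2.

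FOXL2 regions lay on both sides of each limit of the window and of the cluster. At the upstream limit of the window a FOXL2 region 499.5 kb away was inside, with fold enrichments of 19.5 and 12.3 under vehicle and 16.9 and 12.4 under activin, and one 506.2 kb away was outside, with 7.28, 3.69, 13.7 and 9.57. At the downstream limit the FOXL2 regions 486.8 kb (inside) and 510.1 kb away (outside) were both called in all 4 libraries. Around the cluster, the nearest FOXL2 regions outside it lay 35.4 and 102.0 kb upstream, and the outermost inside it 59.3 and 90.6 kb upstream.

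SMAD2/3 regions were also counted around other genes of FSH synthesis and activin signalling, a list chosen with earlier results of these data known. Of 26 such genes, 25 had a start that could be derived from the deposited distances. Fshb had 4 SMAD2/3 regions called in both activin libraries within 100 kb, Cga 6 and Inhbb, which encodes the βB subunit of activin and inhibin, also 4. Of the 24 other genes 15 had at least 1, with a median of 1. The same count over all genes was not made, so these values do not say whether the listed genes differ from genes in general. A region called in all 4 SMAD2/3 libraries lay within 100 kb of 2 of the 24, Cga and Smad7, the latter encoding an inhibitory SMAD, and 2 such regions lay within 100 kb of Fshb. The receptor gene Acvr2b had 2 regions, Acvr1b and Acvr2a none, and the activin antagonist genes Fst and Fstl3 none.

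Windows of the same size around Cga, Lhb (the β subunit of luteinising hormone) and Gnrhr (the receptor for gonadotropin-releasing hormone) held 441, 387 and 491 peaks, against 434 around Fshb. SMAD2/3 regions called in both activin libraries numbered 10, 3 and 11 in them, against 8 around Fshb. The best place that a SMAD2/3 peak of the window reached in the activin lists was 305 and 535 for Cga, 2361 and 1069 for Lhb, and 80 and 110 for Gnrhr, against 3 and 1 for Fshb. The mean length covered by H3K27ac was 30.9 kb under vehicle and 46.9 kb under activin around Fshb (ratio 1.52, exact permutation p = 0.333, n = 2). It was 64.4 and 55.2 kb around Cga, 84.2 and 83.8 kb around Lhb and 60.8 and 53.8 kb around Gnrhr. Activin-only H3K27ac regions numbered 5 of 35 around Fshb, 0 of 42 around Cga, 3 of 74 around Lhb and 3 of 39 around Gnrhr (5.84% of all). Vehicle-only ones numbered 0, 4, 1 and 1 in the same order (6.79% of all). None of the 5 around Fshb remained activin-only at a −log10 q of at least 5.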

How the data were processed

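The peak lists were made by the authors with Bowtie2, MACS2 and HOMER on GRCm38 (mm10), per the submitters' processing notes, with versions and settings not given in the sources used here. Peaks were called for each library, narrow for SMAD2/3 and FOXL2 and broad for H3K27ac. Each deposited peak carries the authors' fold enrichment (a ratio), their −log10 of p and q-value, and a score derived from the −log10 q, all of which describe a peak within its own list. The deposited annotation tables give the nearest start and its distance in bp, from which gene starts were derived.

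Peaks were merged, counted and ranked with Python 3.11.15, numpy 2.4.6, pandas 2.3.3 and scipy 1.17.1, after tests on simulated lists. Coordinates count from 1, distances run from region centres, and overlap means at least 1 bp. Groups were compared with a two-sided exact permutation test over libraries, smallest p 0.333, and reads per library are unknown. Named regions were every SMAD2/3 region, the FOXL2 and H3K27ac regions of the cluster called in both libraries of a treatment, any within 1 kb of the Fshb start, the 5 highest of each outside it, the strongest activin-only and vehicle-only ones and those at a gene start. The FOXL2 regions at 17.2, 35.4 and 334.9 kb upstream and at 89.9 kb downstream were named after their values were seen. The members, lists and the limits of the cluster were chosen with earlier results of these data known. The motif search planned at summits was replaced by one in RefSeq promoter windows, and enhancer sequence was not used here.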

Additional observations from a re-analysis of the deposited data

How the results depend on the processing

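Of 180 alternatives over 29 results, 145 kept the direction of the value, or a count within 1.5 times that reported. The 145 include blocks by replicate number, which left the value unchanged by construction. With SMAD2/3 lists of equal length the differences in the window and the cluster were both 0 peaks, and 0 regions were activin-only; with FOXL2 lists of equal length 1 region was vehicle-only. At a −log10 q of at least 5 the H3K27ac differences were -2.5 peaks in the window and -2 in the cluster, 3 SMAD2/3 and 0 H3K27ac regions were activin-only. When a peak had to cover 50% of its region, 1 SMAD2/3 and 7 H3K27ac regions were called in all 4 libraries, and 2 and 1 H3K27ac regions were activin-only and vehicle-only. With a cluster of 55 to 70 kb the H3K27ac peak difference was -0.5, the cluster held 3 H3K27ac regions, and 1 SMAD2/3 and 1 H3K27ac region of it was activin-only. Ranked by fold enrichment, 0 SMAD2/3 regions were higher in both activin libraries and 1 was lower, that at 67.5 kb upstream.

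Leaving out single libraries gave -1 to 2 for the H3K27ac peak difference in the cluster (-0.5 without vehicle 1, -1 without activin 2), 10 to 13 activin-only and 4 to 5 vehicle-only FOXL2 regions, 5 to 16 activin-only and 0 to 2 vehicle-only H3K27ac regions, 23 to 31 higher and 20 to 25 lower FOXL2 ranks, 3 to 6 higher H3K27ac ranks, and 1 to 2 higher and 0 to 1 lower SMAD2/3 ranks. The cause of these shifts was not tested.

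Of 200 alternatives on the ranks of 25 single regions, 11 turned the sign, all at differences within 1 pooled SD. The 200 include a block by replicate number for each region, which could not turn it. SMAD2/3 at 67.5 kb upstream differed by 0.07 points by whole-list rank and by -1.14 to 0.38 without single libraries. FOXL2 at 90.6 kb upstream differed by -0.10 by fold rank and by -7.39 (without vehicle 1), -1.48 (without activin 1) to 6.53, that at 143.3 kb downstream by -0.55 by fold rank and by -0.09 to 0.51, and that at 335.3 kb by -0.25 to 1.93. H3K27ac at 312.8 kb ranged from -11.95 to 0.09 and that at 85.4 kb from -1.53 to 4.66, with -0.15 without vehicle 1.

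A block by replicate number cannot change a difference of means, so the H3K27ac-covered length of the cluster differed by the same 10926.5 bp. The exact sign-flip p with that block was 0.5, the smallest that pairing of 2 against 2 can give. The labels do not say that equal numbers share a culture. The motif search at summits and its 100 bp alternative were not run.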
